A study of Mus musculus with 12 samples.

Results

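Of 12 RNA-seq libraries made from the frontal cortex of male mice of strain C57BL/6, the 6 from vehicle-treated animals are compared here. The labelled knockout group holds 3 libraries (numbers 2, 4 and 5) from mice labelled HDAC2(loxP,loxP), CamKIIa-Cre(+,-), in which a Cre recombinase under a Camk2a promoter is meant to delete a floxed Hdac2 gene. The wild type group holds 3 libraries (numbers 1, 3 and 4) from mice labelled wild type. As labelled, these carry neither the floxed allele nor Cre, so a difference due to the loss of Hdac2 cannot be told apart from one due to Cre or to DNA inherited with either allele. The other 6 libraries, 3 per genotype, come from mice given chronic clozapine at 10 mg/kg and are used for a matched comparison at the end. The labels give no age, litter or cage, so the tests weigh differences against the spread over libraries, which may in part be technical.

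HDAC2 is a histone deacetylase that works in the Sin3, NuRD and CoREST co-repressor complexes. It removes acetyl groups from histone tails, and this removal is tied to lower transcription. In the forebrain of mice HDAC2 is known as a negative regulator of synaptic plasticity and memory. It binds the promoters of many synaptic and activity-induced genes. Camk2a-driven Cre acts in excitatory forebrain neurons, so interneurons, glia and vessel cells of such mice keep the gene.

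The Hdac2 count did not separate the genotypes. Hdac2 was read at 75.4, 76.6 and 73.3 CPM (read counts scaled to a common library size) in the labelled knockouts, against 75.7, 63.4 and 70 CPM in wild type. The groups overlapped, and the log2 difference, knockout minus wild type, was 0.11 (SE 0.06, adjusted p = 0.277, edgeR quasi-likelihood test with Benjamini-Hochberg adjustment). The count pools all exons of the gene on chromosome 10, and the labels do not say which exons the allele removes, so it cannot check a partial deletion; unrecombined cells also contribute. The loss of Hdac2 is therefore not shown by these counts, and the groups are called labelled knockout and wild type throughout. Of 92 tested genes within 10 Mb of Hdac2, 4 were called higher and 1 lower, a share of 5.43% that lies under the 9.16% of all tested genes.

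Total counts lay between 23408372 and 28069638 over the 6 libraries. Libraries of the same group differed by more than counting error (the chi-square statistic divided by the number of genes was 5.06 at the least and 10.1 at the most in 6 pairs). A principal component analysis of the 6 libraries set the labelled knockouts apart from wild type on component 1, which accounted for 36.4% of the variance.

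Of 17286 genes tested, 1584 (9.16%) differed at an adjusted p under 0.05, the threshold for every call here. In the labelled knockouts 693 genes (4.01%) were higher and 891 (5.15%) lower. With gene length and GC content corrected for, 798 were higher and 754 lower. Most differences were small, with 1136 of the called genes (71.7%) under 0.5 on the log2 scale. The median was 0.43 for genes called higher and -0.31 for genes called lower, while the median of all tested genes was 0.00. Without regard to the test, the 3 and 3 libraries did not overlap for 4722 genes (27.3%), of which 2279 (13.2%) were higher and 2443 (14.1%) lower in the labelled knockouts. The number of calls depended on single libraries: it was 617 without wild type 3, 954 without wild type 1, 837 without knockout 2 and 943 without knockout 5. Called genes in common to all 12 tests that each left out 1 of the study's libraries numbered 492, with 201 higher and 291 lower.

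**Figure D1:**
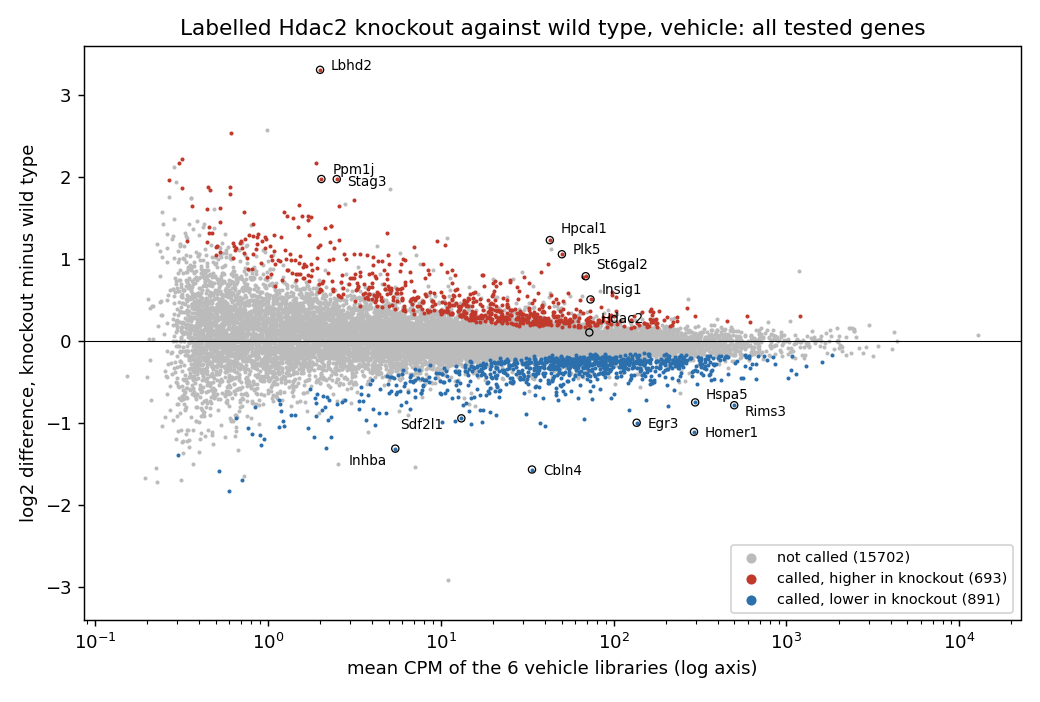
Log2 difference, labelled knockout minus wild type under vehicle (vertical), against the mean CPM of the 6 vehicle libraries (horizontal, log axis); each point is a tested gene, red where called higher and blue where called lower. The 1584 coloured points include few beyond 1 or -1, and Hdac2 lies near 0 among the uncalled genes.

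The largest increases were found in genes of low level. Lbhd2, on chromosome 12, was at 3.998, 3.57 and 3.39 CPM in the labelled knockouts, against 0.305, 0.423 and 0.357 CPM in wild type, a log2 difference of 3.31 (SE 0.20, adjusted p = 2.74e-07). The groups lay far apart for this gene, as they did for Ppm1j, a protein phosphatase, and Stag3, a cohesin subunit of meiotic cells, both with a log2 difference of 1.98. These genes had been picked out in earlier work on the same libraries, so their difference here is not independent. Gpx3, a secreted glutathione peroxidase, was at 7.26, 6.01 and 7.62 CPM in the labelled knockouts, against 2.39, 3.08 and 2.90 CPM in wild type. The labelled knockouts again lay above wild type with no overlap. Oprk1, the kappa opioid receptor, was called at 1.72, but this call ended in 11 of the 23 other settings tried, including those without any 1 of the 6 vehicle libraries.

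Among genes of higher level, Hpcal1, a neuronal calcium sensor, stood at 63.4, 61.6 and 55.2 CPM in the labelled knockouts, against 22.4, 27.0 and 27.2 CPM in wild type (log2 difference 1.23, SE 0.08, adjusted p = 7.23e-07). Every labelled knockout lay above every wild type library by a wide margin. St6gal2, a sialyltransferase, had 92.4, 86.1 and 84.0 CPM in the labelled knockouts, against 50.1, 50.01 and 51.3 CPM in wild type. Pnck, a calmodulin-dependent kinase encoded on the X chromosome, rose by 0.79 and Plk5, a member of the polo-like kinase family, by 1.06. Cirbp, the cold-inducible RNA-binding protein, rose by 0.50, and Hap1, the huntingtin-associated protein, by 0.60. The calls of these 6 genes held in each of the 23 other settings.

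Cbln4, a secreted synapse organiser of the cerebellin family, had the largest decrease among the genes named by size. It stood at 15.6, 14.2 and 21.2 CPM in the labelled knockouts, against 60.3, 52.9 and 38.3 CPM in wild type (log2 difference -1.56, SE 0.21, adjusted p = 0.00282). Wild type 4 was the lowest of its group and still above all labelled knockouts. Inhba, which encodes the subunit of activin A, fell by 1.31 and Zbtb40, a zinc finger gene, by 1.01. Several abundant genes of nerve terminals and the cytoskeleton also fell. Rims3, an active zone protein, was at 391, 346 and 365 CPM in the labelled knockouts, against 660.2, 676 and 554 CPM in wild type. Fmnl1, a formin that acts on actin, fell by 0.79, Synj2, an inositol phosphatase of membrane traffic, by 0.84, and Syt13, a synaptotagmin, by 0.46.

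**Figure D2:**
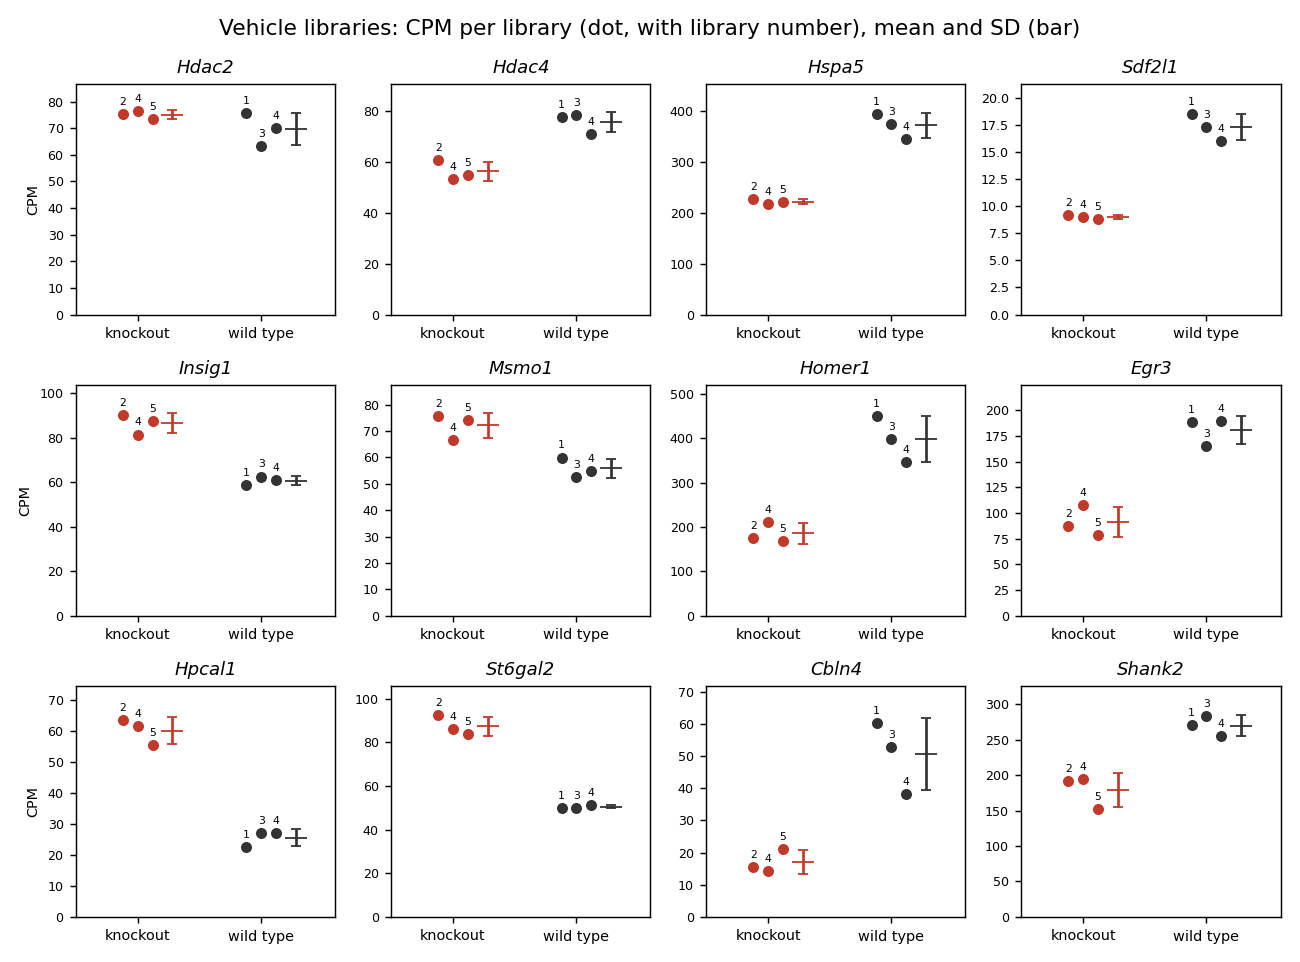
CPM (vertical, from 0) of 12 genes in each of the 3 labelled knockout and 3 wild type vehicle libraries; dots are libraries with their number, and the bar is the mean and SD. Hdac2 overlaps between the groups, while Hspa5 is 218 to 227 CPM in the labelled knockouts and 345 to 394 CPM in wild type.

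Listed genes of protein folding in the endoplasmic reticulum (ER) were lower as a group. Of 33 tested ER chaperones and folding enzymes, 15 were called lower and 0 higher, a share of 45.5% beside the 5.15% of all genes called lower. The list's median log2 difference was -0.19, beside 0.00 for all tested genes, and 30 of the 33 values were negative. Leaving out 1 library at a time gave 12 to 15 lower members. Sil1 and Fkbp9, ER folding genes outside the list, were called higher. Genes outside the list were not counted in either direction. Hspa5, the abundant ER chaperone also called BiP, stood at 227, 218 and 220.3 CPM in the labelled knockouts, against 394, 374 and 345 CPM in wild type. Its log2 difference was -0.74 (SE 0.05, adjusted p = 7.45e-07), and the lowest wild type library lay well above the highest labelled knockout. Sdf2l1, an ER-resident partner of the chaperone machinery, had 9.22, 9 and 8.86 CPM in the labelled knockouts, against 18.5, 17.3 and 16.1 CPM in wild type. The disulfide isomerases Pdia4 (-0.66), Pdia6 (-0.51) and Pdia3 (-0.27) fell, as did the calcium-binding chaperone Calr (-0.40), the secreted ER stress protein Manf (-0.55) and the large chaperone Hyou1 (-0.45), all as log2 differences. Xbp1, a transcription factor of the unfolded protein response, fell by 0.40. Atf4 (-0.03), Ddit3 (-0.12), Trib3 (-0.16) and Eif2ak3 (0.04), of the branch that slows translation, did not pass the test.

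The ER stress response element (ERSE), bound by the factors ATF6 and NF-Y, is written here as CCAAT and CCACG separated by 9 bases of any kind and was searched on both strands. RefSeq promoter windows, 250 bases before to 50 after the start of the gene, were found for 28 of the 33 genes. The element was in 9 of the 28, made up of 7 of the 13 called lower and 2 of the 15 not called, and in 37 of all 27025 windows (0.137%). The windows of the 4 called holders of smallest p follow, 5′ to 3′ on the gene's strand in build GRCm38.p6. Called genes without a match or without a window were passed over. Capitals mark the parts of the element, which read CGTGG and ATTGG where it lies on the opposite strand.
Hspa5, chr2:34771840-34772139 (+ strand): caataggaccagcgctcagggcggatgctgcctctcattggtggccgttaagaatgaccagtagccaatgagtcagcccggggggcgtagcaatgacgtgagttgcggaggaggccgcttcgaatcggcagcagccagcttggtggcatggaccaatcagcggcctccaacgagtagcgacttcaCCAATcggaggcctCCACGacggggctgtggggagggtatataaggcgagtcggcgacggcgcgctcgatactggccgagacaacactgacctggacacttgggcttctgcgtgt
Pdia6, chr12:17266339-17266638 (+ strand): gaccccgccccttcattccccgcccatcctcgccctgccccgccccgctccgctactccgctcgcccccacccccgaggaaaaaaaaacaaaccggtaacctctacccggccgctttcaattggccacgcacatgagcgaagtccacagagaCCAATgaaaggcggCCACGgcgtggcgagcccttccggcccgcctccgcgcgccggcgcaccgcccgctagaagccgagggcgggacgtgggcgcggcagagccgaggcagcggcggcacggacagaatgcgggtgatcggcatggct
Calr, chr8:84846882-84847181 (- strand): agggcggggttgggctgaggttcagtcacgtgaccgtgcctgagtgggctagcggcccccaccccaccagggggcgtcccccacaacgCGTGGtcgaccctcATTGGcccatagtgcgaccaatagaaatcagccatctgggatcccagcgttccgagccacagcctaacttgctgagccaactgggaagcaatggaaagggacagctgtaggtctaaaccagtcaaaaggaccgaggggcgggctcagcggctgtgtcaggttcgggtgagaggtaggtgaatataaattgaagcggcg
Creld2, chr15:88819396-88819695 (+ strand): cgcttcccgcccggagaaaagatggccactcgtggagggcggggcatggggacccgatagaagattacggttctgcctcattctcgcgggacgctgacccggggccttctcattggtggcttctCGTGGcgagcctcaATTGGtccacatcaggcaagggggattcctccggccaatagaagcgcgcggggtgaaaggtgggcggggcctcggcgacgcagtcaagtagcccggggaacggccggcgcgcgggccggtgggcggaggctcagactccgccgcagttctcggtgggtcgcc
The match in Hspa5 began 65 bases before the start and the one in Pdia6 98 bases before it. In Calr and Creld2 it lay on the opposite strand, at 162 and 126 bases before the start. A shorter variant, ERSE-II (ATTGG and CCACG separated by 1 base), was in 2 of the 28 windows, those of Dnajb11 and Herpud1, and in 12 of all windows (0.0444%). Matches are a description of these letters and not evidence of binding.

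Of 21 listed and tested heat shock genes of the cytosol 7 were called lower and 0 higher, beside 5.15% of all genes called lower. The list's median log2 difference was -0.14. The list's count of lower members was 5 to 9 without 1 library and 3 with the replicate number as a block. Hspa2, an HSP70 family gene outside the list, was called higher. Hspb1, a small heat shock protein, was at 6.73, 6.39 and 7.41 CPM in the labelled knockouts, against 14.9, 14.1 and 11.6 CPM in wild type. Hsph1, Chordc1 and Dnaja4, which assist the HSP70 and HSP90 chaperones, fell by 0.32, 0.38 and 0.36 on the log2 scale. Hspa8, the constitutive HSP70, fell by 0.26 and Hsf1, the transcription factor of this response, by 0.30. Hspa1b, called at -0.61, has a near-identical copy, and reads may be divided between them.

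Genes of cholesterol synthesis and uptake were higher as a group. Of 26 tested, 16 were called higher and 0 lower, a share of 61.5% beside the 4.01% of all genes called higher, and the median log2 difference was 0.25. Insig1, a sterol-regulated ER protein that holds back the SREBP factors, had 90.2, 81.4 and 87.6 CPM in the labelled knockouts, against 58.8, 62.5 and 60.8 CPM in wild type. The groups did not overlap for this gene. Hmgcs1, HMG-CoA synthase, rose by 0.30 and Sqle, squalene epoxidase, by 0.32 on the log2 scale. Later enzymes included Msmo1 (0.37) and Dhcr7 (0.34), while Ebp (-0.21) did not pass. Srebf1 rose by 0.22, and Srebf2 (-0.11) did not pass. The count of higher members was 7 without wild type 3 and 8 without knockout 2. The SREBP element SRE-1, written as ATCAC directly followed by CCCAC and added to the search after these counts were seen, was in 0 of 19 windows found and in 27 of all windows (0.0999%).

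**Figure D3:**
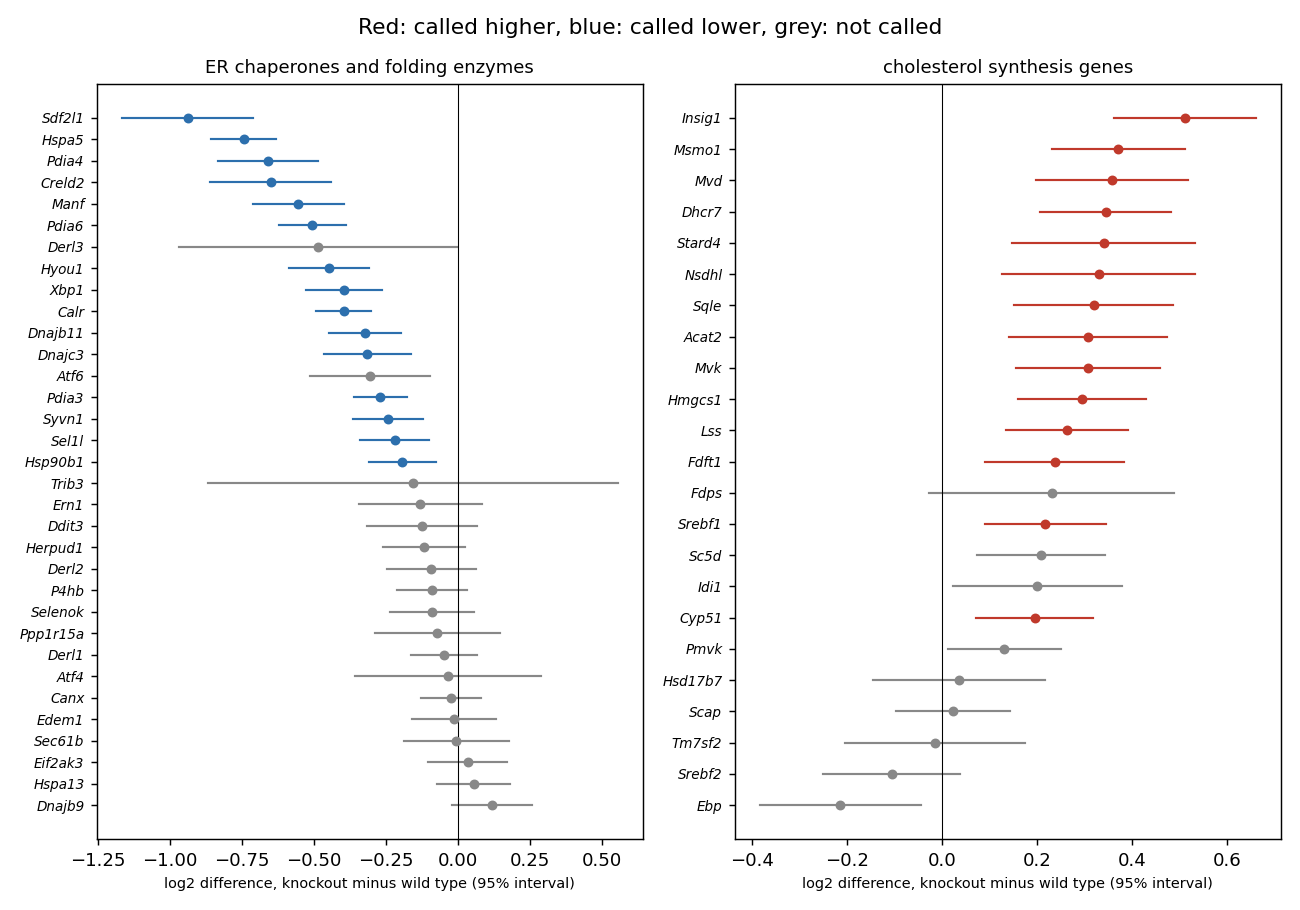
Log2 difference, labelled knockout minus wild type (horizontal), with its 95% interval for each tested ER chaperone gene (left) and cholesterol gene (right). In the left panel 15 genes are called lower (blue), in the right panel 14 are called higher (red), and grey genes are not called; 23 of the 26 cholesterol genes are drawn.

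Among 18 histone deacetylases, Hdac4 and Hdac5, class IIa enzymes that move between nucleus and cytoplasm with neuronal activity, were called lower and none higher, a share of 11.1% beside the 9.16% of all genes. Hdac4 was at 60.4, 53.1 and 54.9 CPM in the labelled knockouts, against 77.4, 78.2 and 70.8 CPM in wild type (log2 difference -0.43, SE 0.06, adjusted p = 0.000849). Hdac5 fell by 0.28. Hdac1, the closest relative of Hdac2, had a log2 difference of 0.10 (adjusted p = 0.602) and did not pass. Of 35 subunits of the HDAC1/2 co-repressor complexes 1 was called, the scaffold Sin3a at 0.23, a share of 2.86% that lies under the 9.16% of all genes. The acetyltransferases Crebbp (-0.25) and Ep300 (-0.26) were called lower among 14 acetyltransferases and acetyl-lysine readers, a share of 14.3% beside the 9.16% of all genes. The calls of Sin3a, Crebbp and Ep300 each ended without wild type 1 and without knockout 5, among other libraries. Each of these calls also ended with the 2 vehicle groups tested alone. Those of Crebbp and Ep300 ended after the length and GC correction too. Of 36 histone and DNA methylation enzymes 8 were called lower and 0 higher, beside 5.15% of all genes called lower, among them Kmt2d (-0.41), a histone H3 methyltransferase, and Kdm5c (-0.33), a demethylase. The count of 8 was 3 once length and GC content were corrected for, 2 without wild type 3, 3 without knockout 2 and 4 without knockout 5.

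Of 32 tested immediate early genes, which neurons switch on with activity, 6 were called lower and 1 higher, beside 5.15% and 4.01% of all genes. The median log2 difference was -0.30. Homer1, whose short form is induced by activity and alters postsynaptic scaffolds, stood at 175, 212 and 169 CPM in the labelled knockouts, against 450.3, 398 and 347 CPM in wild type (log2 difference -1.10, SE 0.20, adjusted p = 0.0133). The transcription factor Egr3 had 87.3, 107 and 78.5 CPM in the labelled knockouts, against 188, 165 and 189.6 CPM in wild type. Neither gene overlapped between the groups. Bdnf, a neurotrophin, fell by 0.54, Ier5 by 0.49, Fosl2 by 1.04 and Fosb by 0.83 on the log2 scale. Jun was called higher, with a log2 difference of 0.60, a call that ended without wild type 1 or 3 and without any 1 of the vehicle knockouts. Fos (-0.57, adjusted p = 0.125) and Arc (-0.63, adjusted p = 0.252) did not pass. Without knockout 2 or without knockout 5 the count of lower members was 3 and the calls of Homer1 and Fosl2 ended (that of Fosl2 also without wild type 1 or 3), while it was 10 without the clozapine-treated knockout 5 and 10 by DESeq2. The cyclic AMP response element, written as TGAC directly followed by GTCA, was in 2 of the 23 windows found for this list, Btg2 and Dusp1, neither of them called, and in 549 of all windows (2.03%).

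Among 19 synaptic genes known in mouse forebrain as bound by HDAC2, 5 were called lower and 0 higher, with a median log2 difference of -0.17. The counts in this paragraph stand beside 5.15% of all genes called lower and 4.01% called higher. These were Homer1, Bdnf, Shank3, Grin2a and Crebbp, and 3 were called without knockout 5. Of 24 postsynaptic scaffold genes 5 were lower, including Shank2 at 192, 195 and 152 CPM in the labelled knockouts, against 271, 284 and 255 CPM in wild type (log2 difference -0.59). Of 27 genes of vesicles and release 4 were lower, led by Rims1 (-0.36), an active zone scaffold. Voltage-gated potassium channel genes had 7 of 26 lower, and sodium and calcium channel genes 7 of 23, with Cacna1a, the pore of the P/Q-type calcium channel, at -0.32. None of the scaffold, release and channel lists had a member called higher, but after the length and GC correction the scaffold list had 3 higher and 5 lower and the potassium channel list 1 higher. Without knockout 5 each of these 4 lists had 1 member called higher, and the potassium channel list also did without wild type 4. The potassium channel count was 1 without wild type 3, 2 without wild type 1 or knockout 5, 3 without knockout 2, and 2 after the length and GC correction. The sodium and calcium channel count was 2 without wild type 3, 3 without knockout 5, and 4 without wild type 1 or knockout 2. The scaffold count was 3 without wild type 1 or 3 or without a clozapine-treated knockout (4 or 5), and 2 without knockout 5; the count of vesicle and release genes was 1 without knockout 5, 2 after the length and GC correction, and 2 without wild type 1, wild type 3, knockout 2 or knockout 4. Transcript length moved with the difference over all genes, with a Spearman correlation of -0.21 over 17197 genes, and the median exon length was 3.55 kb for genes called higher, 6.6 kb for genes called lower and 4.01 kb for all tested. The part of length in the synaptic and channel counts was not tested beyond that correction.

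Glutamate receptor genes gave 1 call in each direction among 22, the NMDA receptor subunits Grin2d (0.44) and Grin2a (-0.34), a share of 9.09% that is near the 9.16% of all genes. Without the clozapine-treated wild type 2 or 5 there were 3 or 2 lower, and without wild type 4, knockout 5 or the clozapine-treated wild type 3 there were 2 higher. Grm2, which encodes the metabotropic receptor mGlu2, had a log2 difference of 0.31 (adjusted p = 0.0596) and did not pass. Of 28 tested receptors for monoamines, acetylcholine and histamine, 4 were lower and 1 higher, beside 5.15% and 4.01% of all genes; 2 were higher without wild type 4, knockout 4 or knockout 5. Htr2c, the serotonin 5-HT2C receptor, had 10.5, 12.4 and 9.97 CPM in the labelled knockouts, against 6.14, 5.46 and 6.90 CPM in wild type, with no overlap (log2 difference 0.82). The adrenergic receptors Adra2c (-0.49) and Adra1d (-0.46) and the histamine receptors Hrh1 (-0.56) and Hrh2 (-0.49) were lower. Of 19 GABA genes 2 were called (10.5%, near the 9.16% of all genes), the receptor subunits Gabra5 (0.56) and Gabra3 (0.21), both higher. Both calls ended without wild type 1 or 3, knockout 2 or 4, or the clozapine-treated knockout 4. The median log2 difference of the GABA list was -0.03, and 12 of the 19 values were negative. Gabrq, a GABA receptor subunit gene outside the list, was also called higher.

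Of 21 tested clock genes 6 were called (28.6%, beside 9.16% of all genes), 2 higher and 4 lower. Npas2, Clock and Arntl, the activating factors of the circadian loop, fell by 0.61, 0.33 and 0.32 on the log2 scale, and Rora by 0.25. Bhlhe41 (0.27) and Ciart (0.55), both repressors in this loop, rose. Neither Bhlhe41 nor Ciart was called without wild type 3 or 4 or without knockout 4 or 5, and the call of Rora ended without wild type 1 or 3 or any 1 of the vehicle knockouts. The labels give no time of day for the collection of tissue.

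No member was called among 71 nuclear-encoded respiratory chain genes (median log2 difference 0.01), 13 mitochondrially encoded proteins (0.14), 31 proteasome subunits (0.03), 17 genes of NF-kB signalling (-0.06) and 8 nuclear-retained long RNAs (-0.09). Of 76 cytosolic ribosomal protein genes 1 was called, Rps20 at 0.21. Glucocorticoid-responsive genes had 2 of 20 called (10%, near the 9.16% of all genes), Nr3c1, the receptor itself, at -0.32 and Sult1a1 at 0.59. Neuropeptide genes also had 2 of 20 (10%), with Scg2 at -0.44 and Nppc at 0.64. The calls of Rps20, Sult1a1 and Nppc each ended without wild type 3, while without wild type 4 the neuropeptide list had 5 higher and 2 lower. Without knockout 2 the glucocorticoid list had 2 higher, and without the clozapine-treated knockout 4 it had 3.

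**Figure D4:**
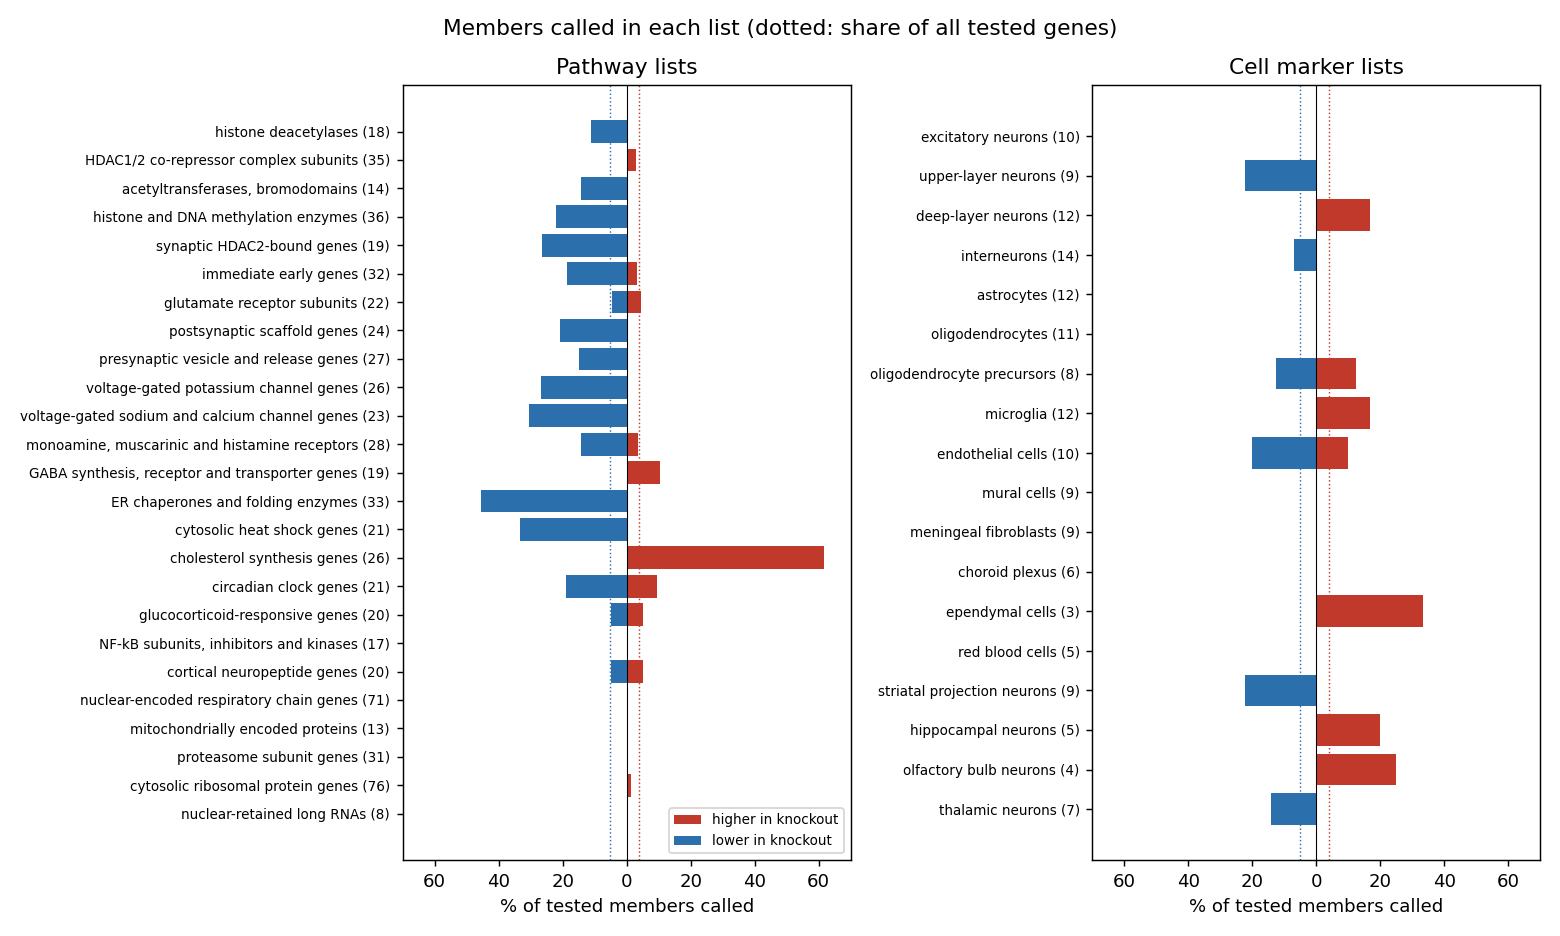
Share of tested members called in the labelled knockouts, by pathway list (left panel) and cell marker list (right panel). Bars are red to the right for higher and blue to the left for lower. The number of tested members is in parentheses, and dotted lines give 4.01% higher and 5.15% lower over all genes. The cholesterol list reaches 61.5% higher and the ER chaperone list 45.5% lower. Not drawn is the list of genes picked out in earlier work on these libraries, with 5 of 9 called higher and 1 lower.

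Markers of cortical neurons and glia were present in all libraries. The counts in this paragraph stand beside 9.16% of all genes called, 4.01% higher and 5.15% lower. Of all tested genes 27.3% had no overlap between the 3 and 3 libraries. None of 10 excitatory neuron markers, 12 astrocyte markers or 11 oligodendrocyte markers was called, and the summed level of the excitatory markers was 9557 to 10370 CPM in the labelled knockouts and 10180 to 11080 CPM in wild type. Upper-layer markers had 2 of 9 lower (Cux2 and Rasgrf2). Deep-layer markers had 2 of 12 higher, Ntsr1 and Rprm, with a summed level of 255.6 to 333.5 CPM in the labelled knockouts and 184.4 to 290.4 CPM in wild type. Microglial markers had 2 of 12 higher, among them C1qb, with sums of 428.6 to 450.6 CPM in the labelled knockouts and 373.5 to 419.5 CPM in wild type. The microglial sums did not overlap. Of 10 endothelial markers 3 were called (30%), Cdh5 (-0.31) and Tek (-0.38) lower and Slco1a4 (0.35) higher, and of 8 markers of oligodendrocyte precursors 2 (25%), Pdgfra (0.36) higher and Olig2 (-0.28) lower. Of 9 striatal markers 2 were lower, among them Pde10a, and the sums were 251.1 to 261.3 CPM in the labelled knockouts and 277.3 to 341.8 CPM in wild type, again with no overlap. Olfactory bulb markers had 1 of 4 higher, Cdhr1 (1.01), with sums of 8.378 to 8.827 CPM in the labelled knockouts and 6.921 to 7.694 CPM in wild type. Hippocampal markers had 1 of 5 higher (Lct), ependymal markers 1 of 3 higher (Rsph1) and thalamic markers 1 of 7 lower (Rora). The calls of Lct, Rsph1 and Rora each ended without wild type 1 or 3 or knockout 2 or 4. That of Cdhr1 ended with the replicate number as a block. Ttr, the choroid plexus marker, was at 53.3 CPM in wild type 3 and between 1.31 and 4.15 CPM in the other 5 libraries. The calls of Rprm, C1qb and Pde10a each ended without wild type 3 or knockout 2, those of Cdh5, Tek, Slco1a4 and Olig2 without wild type 3, and that of Rasgrf2 without wild type 1 or knockout 2. In tissue RNA a change in the share of a cell type cannot be told apart from a change per cell. The part of these shifts in the gene groups above was not tested.

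The same genotype comparison was made in the 6 clozapine libraries, which share no library with the vehicle comparison but share its fit. It called 345 genes (2%). Of these, 149 were also called under vehicle, 9.41% of the vehicle calls and 43.2% of the clozapine calls, and 141 of them had the same direction. Genes called higher under vehicle had a median log2 difference of 0.18 under clozapine and were positive in 578 of 693 cases (83.4%, beside 48.7% of all genes). Genes called lower had a median of -0.06 and were negative in 628 of 891 (70.5%, beside 51.3% of all genes). Lbhd2, Ppm1j and Stag3 kept differences of 2.94, 2.13 and 2.07. The ER chaperone list had a median of -0.09 and the cholesterol list 0.02 under clozapine, and neither had a member called there.

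A test of whether the genotype difference differed between vehicle and clozapine called 113 genes (0.654%), of which 83 were called under vehicle, 16 higher and 67 lower. Hspa5 was among them, with a log2 difference of -0.74 under vehicle and -0.15 under clozapine (interaction -0.59). The interaction called 4 members of the ER chaperone list and 0 of the cholesterol list. For the cholesterol genes a difference between the treatments was therefore not shown gene by gene. The vehicle calls and the interaction use the same vehicle libraries, so the 83 genes called in both are not independent support.

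**Figure D5:**
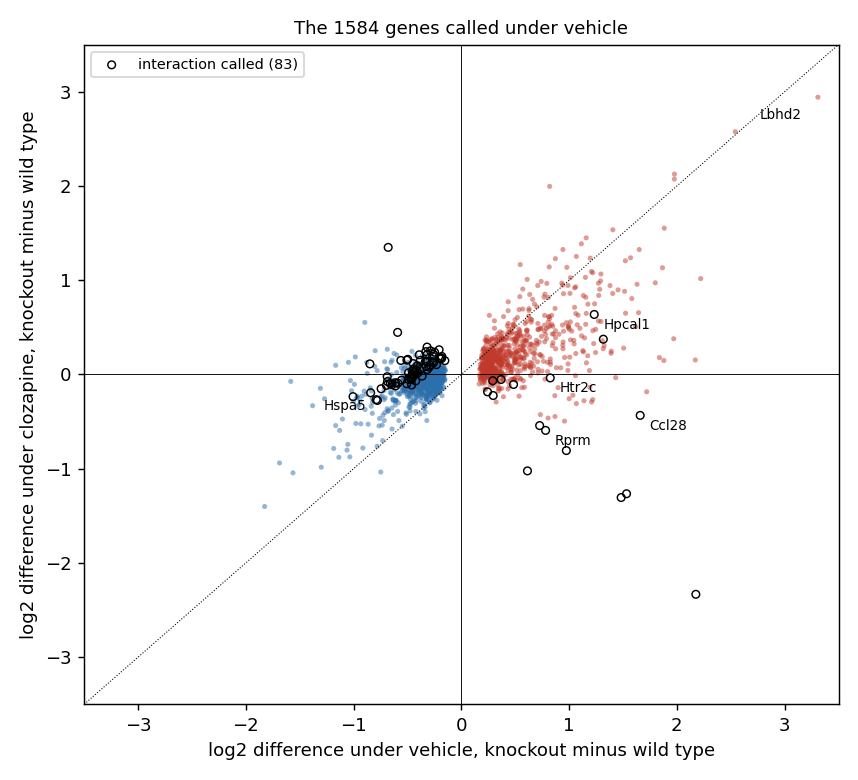
Log2 difference, labelled knockout minus wild type, under vehicle (horizontal) and under clozapine (vertical) for the 1584 genes called under vehicle; the dotted line marks equal values and black circles the 83 genes whose interaction was called. Points called higher lie mostly above 0 on the vertical axis, and those called lower lie close to it, with a median of -0.06.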

How the data were processed

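RNA of 12 frontal cortex libraries was measured by RNA-seq; the 6 vehicle libraries were compared. Per the submitters' processing notes, STAR 2.5.1b aligned the reads to GRCm38 and featureCounts counted them. The deposited table holds estimated counts per gene, of which some are not whole; they were rounded for the tests, although whole counts had been assumed. How shared reads and strand were treated is not given in the sources used here, so values of overlapping, antisense or near-identical genes are uncertain.

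Gene identifiers were matched to GENCODE release M21 names (46574 of 47069). filterByExpr kept 17286 genes with 99.9% of counts. CPM are counts over TMM-scaled library sizes. The main test was edgeR 4.0.16 in R 4.3.3, a robust quasi-likelihood fit of all 12 libraries in 4 groups, with Benjamini-Hochberg adjustment over all tested genes at 0.05. The interaction is the vehicle difference minus the clozapine difference. Promoter windows came from RefSeq tables.

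Genes were named by a rule: Hdac2; up to 14 per direction of largest change among called genes of at least 2 mean CPM with no overlap; up to 8 per direction of smallest p at 50 CPM or more; up to 4 called members of each of 44 lists, or 2 where none passed. List members outside the rule, and Fos, Arc, Hdac1, Grm2, Atf4, Ddit3, Trib3, Eif2ak3, Ebp and Srebf2, were chosen after their values were seen. So were Hspa2, Sil1, Fkbp9 and Gabrq. The lists and members were chosen with earlier results of these data known. Lists are described by counts and medians, with no set test. Results for some genes are not reported here.

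Alternatives were DESeq2 1.42.0, limma-voom (limma 3.58.1), RLE scaling, other filters, unrounded counts, a threshold of 0.1, a replicate block, 1 surrogate variable (sva 3.50.0), a length and GC correction, the 2 groups alone, and leaving out each library. On simulated counts of this comparison over 17113 genes, the changed genes were drawn only from those of at least 2 mean CPM. Of these, 94 of 100 changed 2-fold and 83 of 100 changed 1.5-fold were recovered, with 9 false calls. Each gene was simulated independently, so shifts that many genes of a library share were not modelled.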

Additional observations from a re-analysis of the deposited data

Results flagged for a closer look

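The genotype difference of 20 named genes differed between vehicle and clozapine by the interaction test (edgeR, adjusted over all genes). The genes were named by their vehicle values, and the interaction uses the same vehicle libraries. The naming therefore favoured genes with an interaction. Single genes of this test were not followed through the other settings. Values are the log2 difference, labelled knockout minus wild type, under vehicle minus that under clozapine. Among ER chaperones it was -0.592 for Hspa5 and -0.408 for Pdia6. Among genes of the synapse, channels and nerve terminals it was -0.503 for Rims3, -0.35 for Syt13, -0.466 for Shank3, -0.496 for Shank2 and -0.458 for Cacna1a. For signalling and cytoskeletal genes it was -0.58 for Mapk6, -0.61 for Asap2, -0.523 for Fmnl1 and -0.449 for Rtn4rl1. The receptor genes Adra2c and Htr2c had -0.439 and 0.862. The layer markers Cux2 and Rprm had -0.609 and 1.38. The remaining genes were Gpx3 at 0.944, Hpcal1 at 0.597, Zbtb40 at -0.769, Hnrnpdl at 0.422 and Ccl28 at 2.09.

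Ccl28, a chemokine, was at 2.24, 2.28 and 2.39 CPM in the vehicle labelled knockouts, against 0.609, 0.807 and 0.754 CPM in wild type, with a log2 difference of 1.66 under vehicle and -0.43 under clozapine. It had been picked out in earlier work on these libraries. Groups of 3 libraries were not searched for outlying samples.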

How the results depend on the processing

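The vehicle total of 1584 stayed within 1.5 times under RLE scaling (1584), no low-count filter (1697), a mean CPM of at least 1 (1594), unrounded counts (1583), DESeq2 (1694), limma-voom (1567), 1 surrogate variable (2098), the length and GC correction (1552) and the 2 groups alone (1095). A threshold of 0.1 gave 2480 (1122 higher, 1358 lower). Leaving out 1 library gave 617 to 1722 calls, with 281 to 730 higher and 336 to 992 lower. The clozapine total of 345 was 697 at the 0.1 threshold, 566 with no filter, 547 under DESeq2, 547 with a surrogate variable, and 59 to 425 without 1 library. The interaction total of 113 was 258 at the 0.1 threshold, 302 with no filter, 354 under DESeq2, 290 with a surrogate variable, 45 after the length and GC correction, and 13 to 181 without 1 library. The cause was not tested. Hdac2 was not called in any setting. Signs turned, all without a call, for Meg3 (0.000458 after the length and GC correction; -0.239 to 0.0321 over the fits without 1 library, the highest without wild type 3) and Ttr (-3.45 to 0.0566, the highest without wild type 3).

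The vehicle groups share only the number 4. Residual correlations of same-numbered libraries were -0.0803 to 0.123 over 10 pairs, beside -0.208 to 0.15 over 44 pairs of other numbers. For knockout 4 with wild type 4 under vehicle the value was 0.0967. With 3 libraries per group these values cannot show whether the numbers pair libraries. With the replicate number as a block the vehicle total was 385 (162 higher, 223 lower) and the interaction total 12.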

Other observations

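By chromosome the share of tested genes called was 7.18% to 12.4%, highest on chromosome 12. The X chromosome had 52 genes higher and 17 lower of 613, where all genes together had fewer higher than lower. In 327 windows of 5 Mb with at least 20 tested genes the median share called was 9.09%, and the highest was 24.2%, on chromosome 6 between 30 and 35 Mb, with 2 genes higher and 6 lower of 33. The X chromosome between 70 and 75 Mb, which holds Gabra3, Gabrq, Pnck and Nsdhl, had 9 higher and 6 lower of 65. Hpcal1, Pdia6, Odc1 and Asap2 all lie on chromosome 12 between 17 and 22 Mb, with log2 differences of 1.23, -0.51, -0.29 and -0.69. These windows were examined after the values were seen and were not tested.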
